A study of Danio rerio with 48 samples.

Results

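The response of adult zebrafish to nickel at a measured 51.0 mg/L was examined on 8 of the 48 arrays of the series: the 4 arrays titled as mid nickel and the 4 control arrays whose chemical group is nickel. The members were taken from the sample labels, with no measured value used, and all 43714 probes carrying Ensembl or Vega transcript IDs were tested. The mid nickel group held adult fish aged 6 to 9 months, exposed for 24 h in flowing tank water, and its controls held fish of the same age in the same kind of aquaria with no metal added. Low nickel (42.4 mg/L) and high nickel (64.0 mg/L) served as neighbours in concentration. The mid groups of cobalt (46.3 mg/L) and chromium (69.9 mg/L) with their own control arrays (0 mg/L) served as other metals, each with 4 arrays. The labels name neither the strain and sex of the fish nor the nickel salt nor the number of fish per pool. Judged by their titles, the control pools also served chromium, each pool having 1 array labelled nickel and 1 labelled chromium. Every array carried pooled RNA of whole fish, so fewer cells of a type and less RNA per cell cannot be told apart. The labels do not say whether the pools came from separate tanks. P-values measure the spread between arrays, which may be technical. For the nickel contrasts that spread was taken within the 4 groups of all 16 nickel arrays, not from the 8 alone.

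Nickel is a divalent metal that fish take up from water through the gill and the gut, and at high concentrations it disturbs ion balance and breathing. In vertebrate cells it can displace iron from oxygen-sensing enzymes and so stabilise hypoxia-inducible factor, and it can deplete thiols such as glutathione. Cobalt, its neighbour in the periodic table, shares the action on oxygen sensing, while chromium acts on cells mainly as an oxidant when supplied as chromate. These statements are background and were not measured here.

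The files and reference tables used here do not pair the array's transcript IDs with gene names: of 43714 probes, 0 could be named. Levels are therefore given by probe ID, with no function assigned, and the labelled tissue, whole organism, could not be checked against marker genes. The 4 transcripts described in full are the 2 with the largest increases and the 2 with the largest decreases among those that passed the test and whose 4 mid nickel arrays all lay on one side of all 4 control arrays, each taken at its brighter probe. That rule had 1779 candidate transcripts, 986 higher and 793 lower.

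The largest increase was that of ENSDART00000015991_2. Its log2 intensity was 9.23, 9.31, 10.77 and 9.90 on the 4 mid nickel arrays, against 5.43, 5.31, 5.52 and 5.69 on the 4 control arrays. The groups lay far apart, with controls just above the background limit of log2 5 and mid replicate 3 the brightest of the mid arrays. The group means were 9.80 ± 0.71 in mid nickel and 5.49 ± 0.16 in controls (SD, n = 4 each). This 19.9-fold increase corresponds to a log2 fold change of 4.31 with an SE of 0.31, and its adjusted p in limma was 1.33e-06. The transcript's other probe, ENSDART00000015991_1, gave 4.11 ± 0.34 (SE), adjusted p 5.26e-06 in the same limma fit.

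ENSDART00000010477_1 also rose in every mid array. It had log2 intensities of 10.172, 10.544, 10.353 and 10.199 on the mid nickel arrays, against 7.362, 6.357, 6.724 and 6.410 on the control arrays. The exposed arrays were tightly grouped at 10.32 ± 0.17, against 6.71 ± 0.46 in controls (SD, n = 4 each), where replicate 1 was the highest. Its level was 12.2-fold higher, or 3.60 ± 0.22 (SE) log2 units, limma adjusted p 3.45e-07, and the other probe gave 3.19 ± 0.30 (SE), adjusted p 1.3e-05.

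The largest decrease under the rule was that of OTTDART00000016879_y_1. It had log2 intensities of 6.64, 6.79, 7.51 and 7.18 on the mid nickel arrays, against 8.54, 9.31, 8.70 and 9.49 on the control arrays. No exposed array reached the lowest control, and all 8 arrays lay above the background limit. The means were 7.03 ± 0.39 in mid nickel and 9.01 ± 0.46 in controls (SD, n = 4 each). The level was 3.94-fold lower in mid nickel, with a log2 change of -1.98 ± 0.30 (SE) and a limma adjusted p of 0.000965, and the other probe, OTTDART00000016879_y_2, gave -1.65 ± 0.25 (SE), adjusted p 0.000923.

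ENSDART00000055064_1 had a smaller decrease with less spread between arrays. Its log2 intensities were 8.63, 8.57, 8.17 and 8.59 on the mid nickel arrays, against 10.38, 9.90, 10.21 and 10.31 on the control arrays. Mid replicate 3 was the lowest exposed array, and the other 3 exposed arrays spanned 0.066 log2 units. The means were 8.490 ± 0.216 in mid nickel and 10.201 ± 0.210 in controls (SD, n = 4 each). They differed by -1.71 ± 0.11 (SE) log2 units, limma adjusted p 4.96e-07. The other probe gave -1.72 ± 0.11 (SE), adjusted p 3.76e-07.

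**Figure D1:**
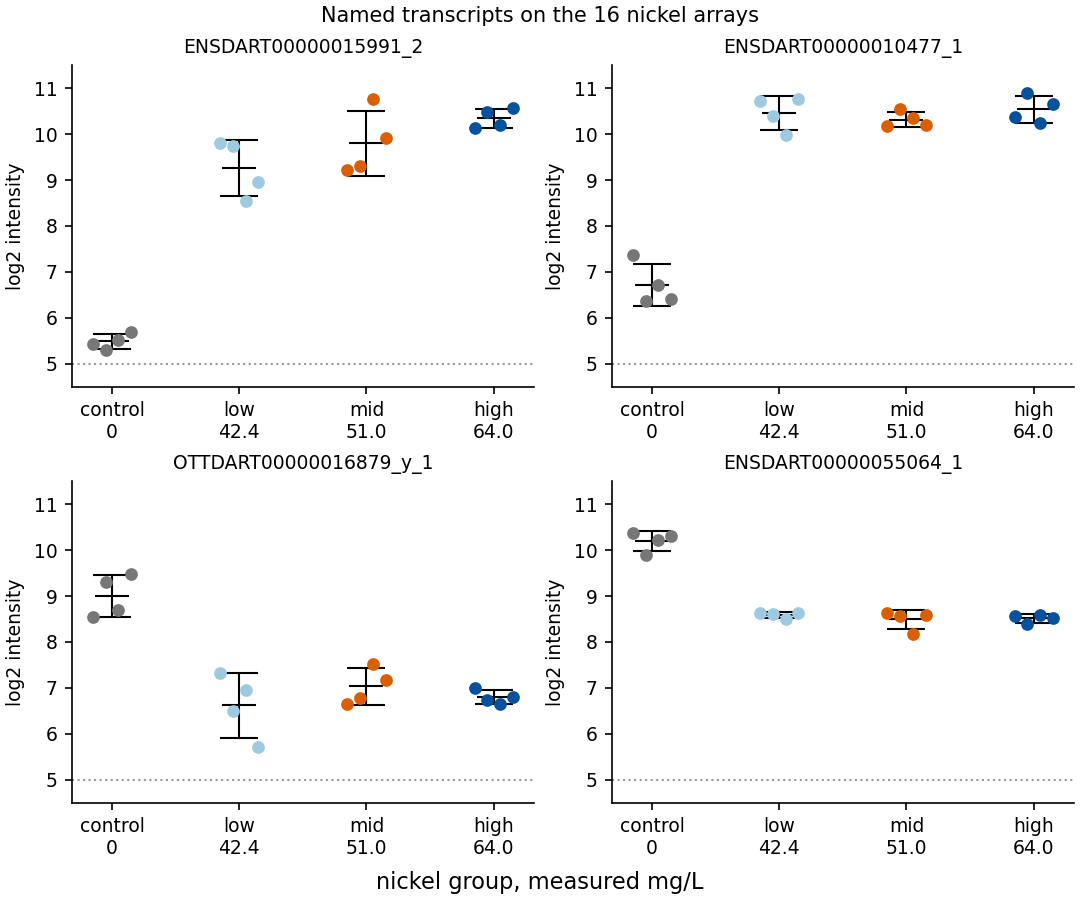
Log2 intensity (y axis) of the 4 named probes on the 16 nickel arrays, by group and measured concentration in mg/L (x axis). Points are arrays, bars are the mean and SD of 4 arrays, and the dotted line is the background limit of log2 5. In each panel the 4 mid arrays lie on one side of the 4 control arrays, and their range overlaps those of the low and the high arrays.

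The control pools were measured a second time, on the chromium-labelled arrays, and those arrays were not part of the comparison above. On them ENSDART00000015991_2 had a mean of 5.86 ± 0.19 and ENSDART00000010477_1 of 6.65 ± 0.48, while OTTDART00000016879_y_1 had 9.13 ± 0.41 and ENSDART00000055064_1 had 9.99 ± 0.13 (SD, n = 4 each). None of these second control measurements overlapped the mid nickel arrays. With them as controls the log2 fold changes were 3.94, 3.67, -2.10 and -1.50 in that order, and all 4 passed the limma threshold. They are the same pools hybridised again, not further fish.

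Across the array, 3299 of 43714 probes, or 7.55%, passed the limma threshold of an adjusted p of 0.05 at mid nickel, 1876 higher (4.29%) and 1423 lower (3.26%). They belonged to 2363 transcripts. At an unadjusted limma p of 0.05, 8037 probes, or 18.4%, passed, where a share of 0.05 would pass if nothing differed. The split by direction holds for the deposited scale, since 87.7% or 92.3% of calls were higher when arrays were scaled to control rows or to the E1A rows alone. Most changes were modest: 89.0% of the called probes changed by less than 2-fold, with a median log2 fold change of 0.60 among higher and -0.56 among lower calls.

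Large changes were mostly increases. At least 2-fold changes were called for 266 higher and 96 lower probes, and at least 4-fold changes for 34 higher and 0 lower probes. The 34 belonged to 20 transcripts and had a median control log2 intensity of 7.27, well above background. Probes whose estimated change reached 2-fold without passing the test numbered 13 higher and 23 lower, and 3 of those 23 had an estimated decrease of over 4-fold. A 4-fold decrease was therefore estimated at some probes but passed the test at none in limma.

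**Figure D2:**
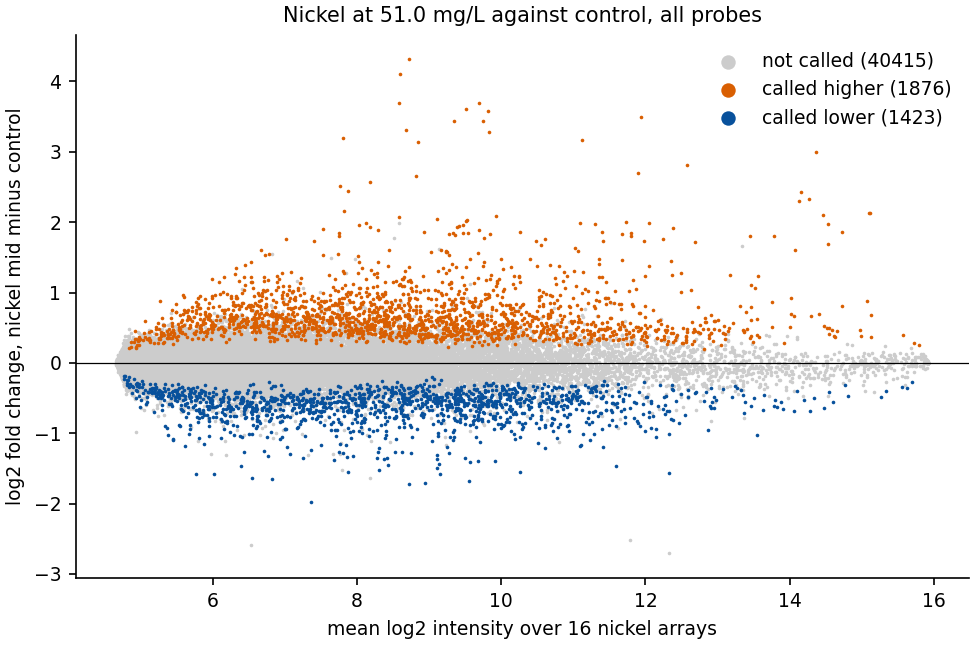
Log2 fold change of mid nickel minus control (y axis) against the mean log2 intensity over the 16 nickel arrays (x axis), 1 point per probe. The 1876 probes called higher reach a log2 fold change of 4.31, whereas the 1423 called lower end at -1.98.

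Both groups separated fully for 5224 probes, or 12% of all, in either direction (2748 higher, 2476 lower). Among the 3299 called probes, 3025, or 91.7%, had no overlap between mid nickel and control arrays. Seen array by array, the share of the 1876 higher calls that lay above all 4 controls was 98.0%, 95.5%, 99.1% and 98.9% on mid replicates 1 to 4. For the 1423 lower calls the shares below all 4 controls were 97.4%, 97.2%, 98.1% and 98.0%. Over all probes, 22.7% to 23.7% lay above and 23.0% to 23.8% below all controls on any mid array. These shares describe probes picked on the same arrays and carry no test.

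Mid replicate 2 showed the smallest differences. Its median difference from the control mean was 0.49 over the higher calls and -0.52 over the lower calls, against 0.59 to 0.67 and -0.55 to -0.58 on the other 3 mid arrays. It also stood at least 2-fold apart from 3 otherwise similar mid arrays at 27 probes with a mean above log2 6, against 12 or 13 probes for each of the others. Mid replicate 3 gave the largest differences. With mid replicate 1, 2, 3 or 4 left out, 2568, 3083, 2272 and 2401 probes were called in that order, against 3299 with all arrays.

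Calls depended on signal. Of the 14282 probes with a mean at or below log2 5, 0.280% were called, and of the 10072 between 5 and 6, 3.28%. The share was 9.35% between 6 and 8, 19.4% between 8 and 10, and 26.1% between 10 and 12. Above log2 12 it was 20.6%, with 144 higher and 77 lower calls among 1074 probes. Higher calls outnumbered lower ones in each bin above log2 6, while the 2 dimmest bins together held 173 higher and 197 lower calls on the deposited scale. The median SE of a log2 fold change was 0.071 in the dimmest bin, 0.13 between log2 5 and 6, 0.16 between 6 and 8, 0.13 between 8 and 10, 0.12 between 10 and 12 and 0.10 above 12. The median absolute log2 fold change was 0.044 in the dimmest bin, 0.12 between 5 and 6, and between 0.14 and 0.22 in the brighter bins.

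**Figure D3:**
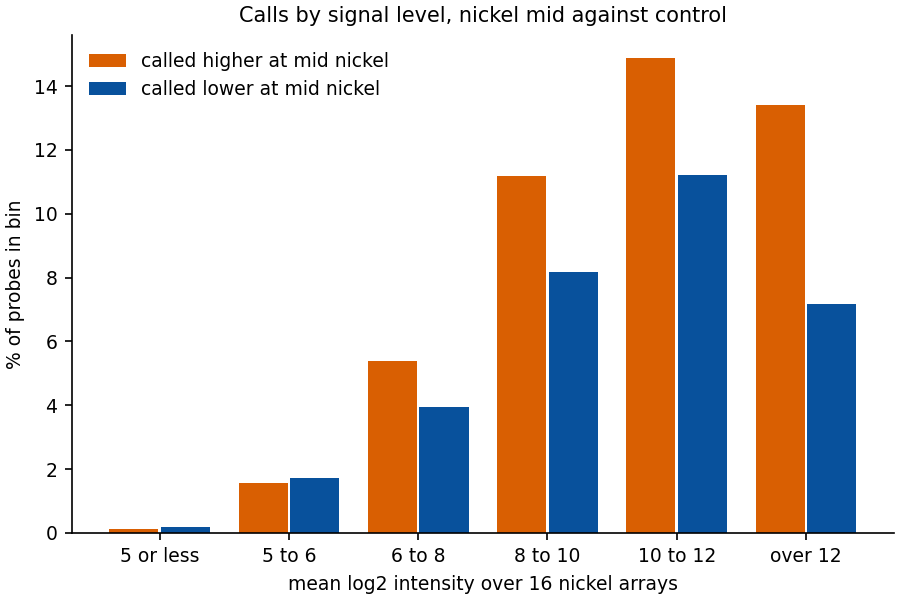
Share of probes called higher or lower at mid nickel (y axis, percent of the probes in the bin) by mean log2 intensity over the 16 nickel arrays (x axis). The share called higher is largest, at 14.9%, between log2 10 and 12, and the share called lower is largest in the same bin, at 11.2%.

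Few called probes crossed the background limit. Of the probes at or below log2 5 on all 4 control arrays, 31 were called higher, and 17 of these were above the limit on all 4 mid arrays. With control arrays set to the limit, the largest of these 17 increases was at least 0.74 log2 units. In the other direction 28 called probes were at or below the limit on all 4 mid arrays, 11 of them above it on all controls, and the largest of these 11 decreases was at least 0.40 log2 units. Another 7033 probes were at or below the limit on all 16 nickel arrays, and 4 of them were called.

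Probes of the same transcript mostly changed in the same direction where a call was made. Of the 21903 transcripts, 21811 had 2 probes, and 2358 of these had a call. Both probes were called in the same direction in 936 (583 higher, 353 lower), or 39.7%, and 0 transcripts had probes called in opposite directions. Where 1 probe alone was called, in 1422 transcripts, the other probe had the same sign in 94.6%. The same share over all transcripts with 2 probes was not computed. Across the 8365 transcripts whose probes both averaged above log2 6, the log2 fold changes of the paired probes correlated at 0.88, a description across transcripts whose probes share the same arrays. Called shares differed by annotation source: 7.72% of 41681 Ensembl probes and 4.08% of 2033 Vega probes, the Vega probes with 29 higher and 54 lower calls. That difference between sources was not tested.

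The direction split depended on how arrays were put on a common scale. On the deposited scale 56.9% of calls were higher. Scaled to 17 control rows of intermediate brightness, 2257 probes were called and 87.7% of them were higher, and scaled to the 6 E1A rows alone, 3543 were called, 92.3% higher. Over all probes the median fold change moved up by 0.15 log2 units under the control rows and by 0.20 under the E1A rows. E1A rows are the manufacturer's added control transcripts, judged by their names, and averaged 10.74 ± 0.10 on mid nickel arrays and 10.94 ± 0.21 on control arrays (SD, n = 4 each). The difference of -0.20 had a two-sided exact permutation p of 0.143 (Benjamini-Hochberg 0.429 over 6 tests of array measures, smallest p of the design 0.0286). Control replicate 4, at 10.66, lay among the mid arrays, which ran between 10.65 and 10.88. The 4 named transcripts, picked for large changes, kept their direction and passed limma's test under both scalings. All other changes in this report are relative to the deposited scale.

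**Figure D4:**
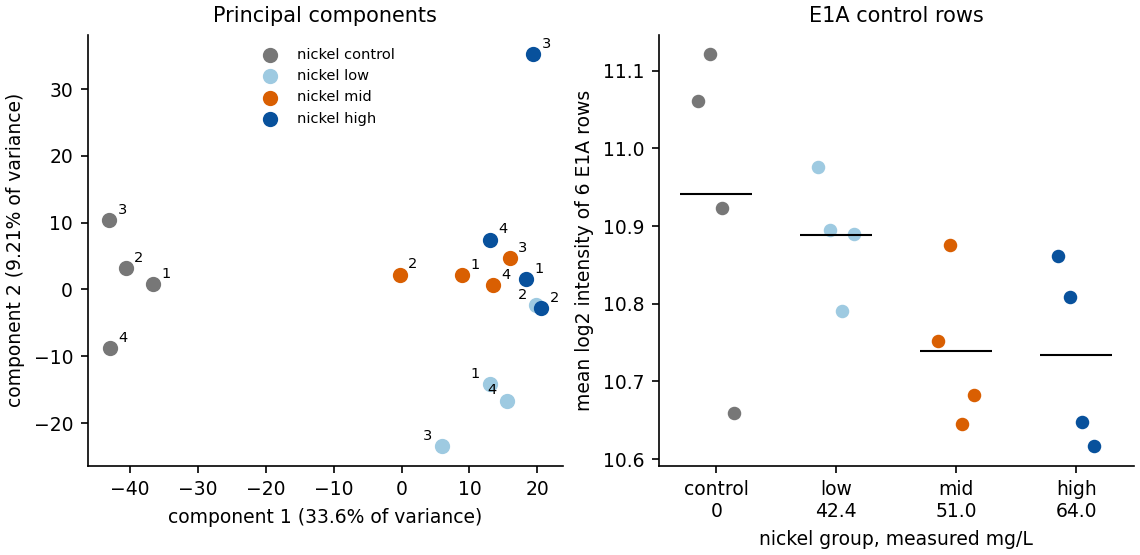
Left, scores of the 16 nickel arrays on the first 2 principal components of 19360 probes with a mean above log2 6, numbered by replicate. Right, mean log2 intensity of the 6 E1A control rows per array (points) and group (lines) against measured nickel in mg/L; mid arrays average 10.74 and control arrays 10.94.

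Mid nickel was next set beside its neighbours in concentration. On the first principal component of the nickel arrays, which held 33.6% of the variance, controls averaged -40.9 ± 3.00, low arrays 13.6 ± 5.84, mid arrays 9.51 ± 7.16 and high arrays 17.8 ± 3.35 (SD, n = 4 each). Mid replicate 2 was the exposed array nearest to the controls, at -0.288. On the second component high replicate 3 stood apart at 35.2, while the mid arrays lay between 0.656 and 4.67. Pairs of mid arrays correlated between 0.991 and 0.993 across probes. Over the probes above log2 6 the median SD was 0.192 in controls, 0.206 in low, 0.185 in mid and 0.183 in high nickel.

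The direct contrast of mid with low nickel shares no control array and called 3 probes, or 0.00686%, all higher at mid. At an unadjusted limma p of 0.05, 3115 probes, or 7.13%, passed. The 3 called probes belong to a pair of transcripts, named here because the count is small and chosen after their values were seen. ENSDART00000005279_1 had log2 intensities of 11.84, 12.07, 11.79 and 11.61 on the mid arrays, against 10.57 to 11.14 on the low arrays. Its mean was 11.83 ± 0.19 in mid and 10.76 ± 0.27 in low nickel (SD, n = 4 each), which is 1.07 ± 0.13 (SE) log2 units higher at mid, limma adjusted p 0.0317. Group means did not follow the order of concentration: high nickel averaged 11.33 ± 0.19 and controls 12.41 ± 0.10 (SD, n = 4 each). The probe was picked on its step from low to mid, and its step from mid to high did not pass. Mid nickel was itself below control, by a log2 fold change of -0.58, limma adjusted p 0.0124.

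ENSDART00000005279_2, from the same transcript, gave 0.91 ± 0.13 (SE) for mid against low, adjusted p 0.0459 in limma. ENSDART00000081428_y_1 averaged 11.38 ± 0.17 in mid nickel, against 10.55 ± 0.23 in low nickel (SD, n = 4 each). That difference was 0.83 ± 0.11 (SE) log2 units, limma adjusted p 0.0459. Against control, at a mean of 11.101 ± 0.074 (SD, n = 4), its change of 0.28 at mid nickel did not pass in limma, adjusted p 0.182. These calls were fragile: the count for mid against low ran between 0 and 12 when single low or mid replicates were left out. It was 0 without low replicate 3 or 4 or without mid replicate 1 or 2. Without mid replicate 3 it was 1, a different probe called lower.

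High against mid nickel called 0 probes, or 0%, in limma, with 1720, or 3.93%, at an unadjusted p of 0.05, and the smallest adjusted p was 0.617. The count was 0 under each of the 17 alternatives run for it. After removal of the spread between arrays, the root mean square difference over all probes was 0.076 log2 units for mid against low. For high against mid the estimate after that subtraction was negative and is given as 0, and for mid against control it was 0.232. A count at or near 0 does not show that the concentrations act alike.

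Each of the 4 named transcripts was set beside its low and high levels. ENSDART00000015991_2 averaged 9.26 ± 0.61 in low, 9.80 ± 0.71 in mid and 10.35 ± 0.20 in high nickel (SD, n = 4 each), and neither step of 0.54 log2 units passed, limma adjusted p 0.787 for mid against low and 1 for high against mid. An interval of 2 SE around the first step ran from -0.09 to 1.17. For the transcript's other probe, ENSDART00000015991_1, the interval for mid against low lay above 0, from 0.09 to 1.46 around 0.78. That step did not pass either, limma adjusted p 0.66. ENSDART00000010477_1 stood at 10.46 ± 0.36, 10.32 ± 0.17 and 10.54 ± 0.29 in the same order of concentration. ENSDART00000055064_1 stood at 8.59 ± 0.06, 8.49 ± 0.22 and 8.51 ± 0.09, with mid minus low at -0.10 and an interval of 2 SE from -0.32 to 0.12. OTTDART00000016879_y_1 was at 6.62 ± 0.70, 7.03 ± 0.39 and 6.80 ± 0.15 (SD, n = 4 each).

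For whole classes of calls, the medians of the 3 comparisons with control stood side by side as follows, all 3 sharing the same control arrays and the classes having been chosen on the mid arrays. The 34 probes raised at least 4-fold at mid had median log2 fold changes of 2.58 at low, 2.68 at mid and 2.95 at high nickel. For the 232 raised between 2-fold and 4-fold the medians were 1.22, 1.22 and 1.38. For the 96 lowered at least 2-fold they were -1.13, -1.19 and -1.23.

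Cobalt at 46.3 mg/L, with control arrays of its own, allowed a comparison without shared arrays, at a different concentration. Of the 1876 probes called higher at mid nickel, 891 were also called higher at mid cobalt, which is 47.5% of the nickel list and 46.5% of the cobalt list, where 4.38% of all probes were called higher at mid cobalt. Of the 1423 called lower, 484 were called lower at mid cobalt, 34.0% of the nickel list and 29.5% of the cobalt list, against 3.75% of all probes. The shares over all probes include dim probes, of which few were called at mid nickel (0.280% at or below log2 5). No comparison at matched signal was made. Opposite calls numbered 10 among the higher and 11 among the lower nickel calls. The nickel calls had the same sign in cobalt for 91.1% of the higher and 88.5% of the lower probes, whereas over all probes 49.0% were above and 51.0% below 0 in cobalt. Among the 34 strongest increases 32 were called higher in cobalt, with a median log2 fold change of 2.93 there against 2.68 in nickel. In mid chromium, whose control arrays come from the nickel control pools, their median was 1.53. Of the 232 raised between 2-fold and 4-fold, 163 were called higher in cobalt. Their medians were 1.22 in nickel, 1.07 in cobalt and 0.93 in chromium. Of the 96 lowered at least 2-fold, 47 were called lower in cobalt, and the medians were -1.19, -0.75 and -1.15 in that order.

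The difference between the mid nickel and mid cobalt effects was tested in a fit of all 48 arrays, and 456 probes passed limma's threshold, or 1.04%. The value was larger in nickel at 234 of them (0.535% of all probes) and larger in cobalt at 222 (0.508%). Of these, 171 were among the 3299 nickel calls, 5.18% of them. In 340 of the 456 the cobalt effect was larger in size and in 116 the nickel effect. Both metals were called in opposite directions at 19 of the 456. None of the 4 named transcripts differed between nickel and cobalt at the threshold: the adjusted p was 0.507 for ENSDART00000015991_2, 0.561 for ENSDART00000010477_1, 0.914 for OTTDART00000016879_y_1 and 0.437 for ENSDART00000055064_1. The interval of 2 SE lay above 0 for ENSDART00000055064_1, from 0.03 to 0.70 around 0.37, cobalt having the larger decrease. Its other probe gave 0.25, with an interval from -0.10 to 0.61. For ENSDART00000010477_1 the interval ran from -1.43 to 0.07 around -0.68, and for its other probe from -1.50 to -0.02 around -0.76. For ENSDART00000015991_2 the interval of 2 SE ran from -0.02 to 2.78 log2 units around a difference of 1.38. Among its cobalt control arrays, replicate 2 was the brightest at 8.26, and the other 3 ran between 5.47 and 5.78. Without that array, a setting added after the data were seen, the difference was 0.73 ± 0.63 (SE), limma adjusted p 0.772.

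Chromium at 69.9 mg/L differed from mid nickel at 974 probes, or 2.23%, with the larger value in nickel at 786 (1.8% of all probes) and in chromium at 188 (0.43%). A larger value here is the more positive log2 fold change, not the stronger response. At 833 of the 974 the chromium effect was larger in size, and 325 were among the nickel calls, 9.85% of those. Of the 974, 621 were called in chromium alone, 97 in nickel alone, 228 in both and 28 in neither. Against its own controls mid chromium had 937 probes called at least 2-fold lower and 327 at least 2-fold higher. Mid nickel had 96 and 266. A fit that took each shared control pool as a random block was added after the data were seen. In it 1421 probes differed, 71.8% of them with the larger value in nickel, where the unblocked fit had 80.7%. ENSDART00000010477_1 was among the 974: its log2 fold change was 3.60 in nickel and 0.43 in chromium, where it did not pass the limma threshold, and the effects differed by 3.17 ± 0.38 (SE), limma adjusted p 1.25e-07. In cobalt the same probe rose by 4.28 ± 0.26 (SE), adjusted p 1.13e-07. ENSDART00000055064_1 fell further in nickel than in chromium, by a difference of -0.84 ± 0.17 (SE), limma adjusted p 0.00143, although its other probe missed the threshold at -0.59 ± 0.18 (SE), adjusted p 0.0747. ENSDART00000015991_2 rose in chromium too, by 3.77 ± 0.58 (SE), limma adjusted p 0.000382, and the difference from nickel of 0.54 did not pass, limma adjusted p 0.934. Its mid chromium arrays were uneven, at 7.46, 10.57, 10.46 and 10.04 on replicates 1 to 4. The low value of replicate 1 pulls the chromium mean down, and the difference without that array was not tested, so its sign is uncertain.

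The number of calls at mid nickel also depended on which array of each control pool was used. With the chromium-labelled arrays of the same pools as controls, 5534 probes were called (2786 higher, 2748 lower), of which 2456 were called in the same direction as with the nickel-labelled arrays. With each pool averaged over both of its arrays the count was 4085 (2220 higher, 1865 lower), 2829 of them shared with the main list. The nickel-labelled arrays carry the same metal label as the exposed ones, and the labels do not say whether arrays were run in sets by metal.

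**Figure D5:**
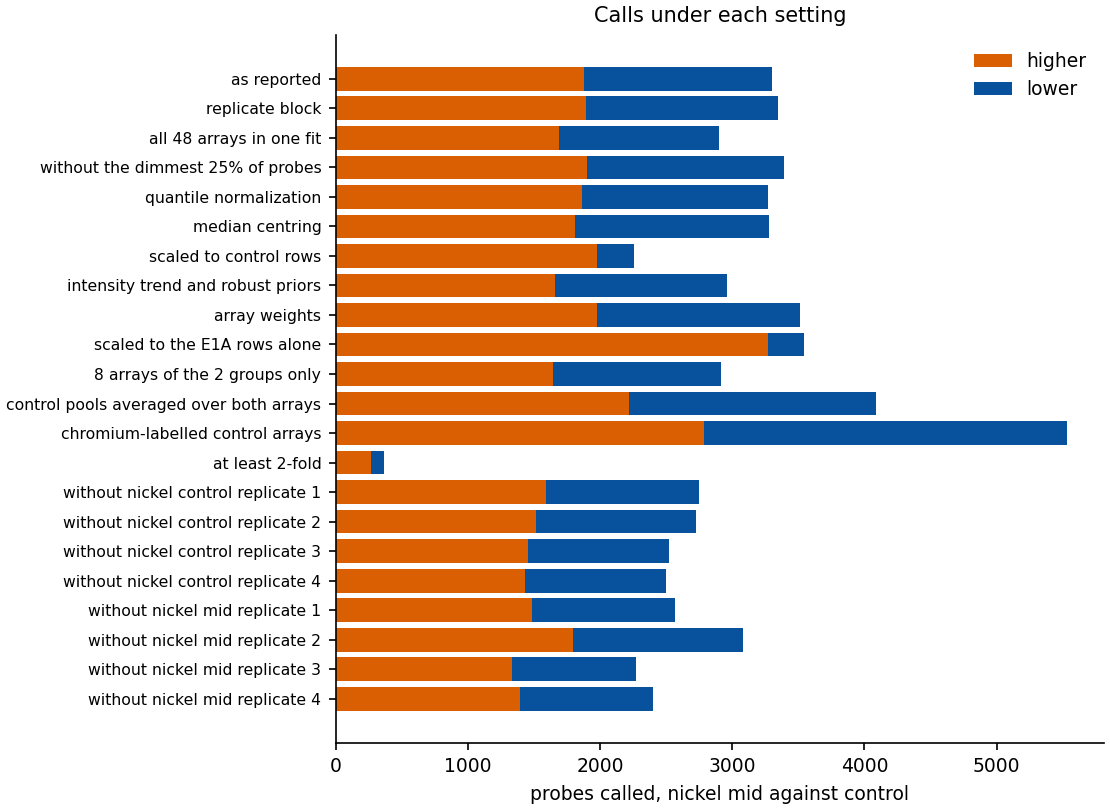
Probes called at mid nickel against control (x axis), stacked as higher and lower, under the settings listed on the y axis. The total is 3299 as reported and 5534 with the chromium-labelled control arrays, and the lower calls shrink to 278 and 272 when arrays are scaled to control rows or to the E1A rows alone.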

How the data were processed

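Per the labels' protocols, pooled total RNA of pulverised whole fish was labelled with Cy3 for one-colour arrays. The values deposited by the authors are array intensities, read as log2 from their range, for each probe on each array. How the authors corrected background and normalized is stated in no label or header used here. All 43714 rows with transcript IDs were used as deposited, 61 control rows were kept for scaling, and 0 columns were unmatched. The background limit of log2 5 was known from earlier work on these data; in the nickel arrays 100% of the values of 2 control rows named as dark lay at or below it. R 4.3.3 and limma 3.58.1 were used: lmFit and eBayes on the 16 nickel arrays with a coefficient for each of the 4 groups, and on all 48 arrays for differences between metals, with Benjamini-Hochberg adjustment over all probes at 0.05. The fit was tested on simulated data. The number of arrays limits the precision.

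Replicate numbers were not taken as pairs, since in none of the 3 comparisons did every same-numbered pair correlate above 0.1: residual correlations ran from -0.061 to 0.079 for mid with control, -0.123 to 0.173 for mid with low and -0.064 to 0.153 for high with mid. Members, gene lists and rules were chosen with earlier results of these data known; the 21 gene lists and the cell type markers could not be run without gene names. The text names, at each transcript's brightest probe, the 2 strongest called increases and the 2 strongest called decreases whose groups do not overlap. That is the rule's form for arrays without gene names. Alternatives covered the block, the arrays fitted, a filter on dim probes, scaling, priors, weights, control arrays and left-out replicates.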

Additional observations from a re-analysis of the deposited data

Results flagged for a closer look

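In ENSDART00000055064_1, mid nickel replicate 3 lay at 8.17, apart from the other 3 mid arrays by more than the limit for 4 samples. Without that replicate the log2 fold change was -1.60 instead of -1.71, limma adjusted p 9.36e-07. Among the groups examined, the same limit was passed on 4 arrays of the other metals. In ENSDART00000015991_2 these were cobalt mid replicate 3, at 8.34, and cobalt control replicate 2, at 8.26. Cobalt control replicate 4 lay at 6.21 in ENSDART00000010477_1, and chromium-labelled control replicate 4 at 10.19 in ENSDART00000055064_1. These are 5 among 44 groups examined, and chance gives about 1 in 20. High chromium (80.6 mg/L) replicate 1 in ENSDART00000010477_1 is not among the 5, because its group was not among the 44 examined. It lay at 8.75, and the other arrays of its group ran from 7.46 to 7.59, a gap that also exceeds the limit.

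Tests of the difference between metals found 456 probes for nickel against cobalt and 974 for nickel against chromium, at unequal concentrations. Among the named transcripts, the increase of ENSDART00000010477_1 was larger in nickel than in chromium, by 3.17 log2 units. ENSDART00000055064_1 had a more negative change in nickel, by -0.84, but its other probe, at -0.59, did not pass (limma adjusted p 0.0747). The cause of these differences was not tested.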

How the results depend on the processing

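The count at mid nickel against control stayed within 1.5 times of 3299 in 19 of 21 alternatives. It was 5534 with chromium-labelled control arrays and 362 with a limit of 2-fold, and ran from 2272 to 3083 with single replicates left out, of which at least 2185 were among the original calls. The list changed more than the count under scaling. Of the 3299 calls, 1936 were called in the same direction when scaled to control rows and 2144 when scaled to E1A rows alone. Lower calls went from 1423 to 278 and 272 in that order. With the replicate block the count at mid nickel against control was 3348. The block moved the other counts within 1.5 times apart from mid against low, where it gave 0. The 4 named transcripts kept their direction and their call under all 20 alternatives each. They had been picked as the largest called changes without overlap, so this does not test how stable other calls are. Fitted on the 8 arrays alone, their limma adjusted p was 0.000355, 0.000235, 0.00388 and 0.000518, in the order described above. Mid against low gave 3 probes, 17 with all 48 arrays, 8 without the dimmest 25% of probes, 9 when scaled to control rows, 22 when scaled to E1A rows alone, 27 with an intensity trend and robust priors, and 0 to 12 without single replicates; the cause was not tested. High against mid gave 0 throughout. The differences from cobalt and chromium stayed between 349 and 494 and between 857 and 1421 probes. Of 43714 probes, 14282 averaged at or below log2 5, and 0.280% of those were called; whether low signal hid changes there was not tested. Scaling to E1A rows alone, chromium-labelled controls, the random block of control pools and leaving out cobalt control replicate 2 were chosen after seeing the data.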
